A study of Mus musculus with 22 samples.

Results

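The genes described here are 10 that mark type 1 helper (Th1) and cytotoxic T cell responses: the cytokines Ifng, Csf2 and Tnf, the chemokines Ccl3, Ccl4, Ccl5 and Xcl1, and the receptor chains Il12rb2, Il18r1 and Il18rap. They were taken by symbol from a count table of 24091 genes, from a list drawn up with earlier results of these data known, and all 10 passed the low-count filter of every fit. The 22 RNA-seq libraries came from C57BL/6 wild-type donor T cells in lethally irradiated wild-type BALB/c mice that had received C57BL/6 spleen and bone marrow cells. Recipients were given a monoclonal antibody to IL-2 or control IgG every other day through day 6, and on day 7 donor CD4+ or CD8+ T cells were sorted from the colon, labelled gut, or the spleen. The 8 groups were anti-IL-2 and IgG cells of CD4 gut, CD4 spleen, CD8 gut and CD8 spleen, with 3 libraries each except the CD4 and CD8 gut IgG groups, which had 2. Libraries carried 1 of 3 batch labels, 190306, 181201 or 181212, and no gut IgG library belonged to batch 181201. All donors and recipients of these groups were wild type. Whether libraries of a batch shared animals is not stated in the sources used here, so p-values measure the spread between these libraries.

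Transfer of allogeneic T cells into an irradiated host drives graft-versus-host disease, in which donor T cells of both lineages acquire interferon-gamma production and enter the gut. IL-12 acts through a receptor that contains the Il12rb2 chain and induces Th1 differentiation through STAT4, while IL-18 acts through Il18r1 and its accessory chain Il18rap and boosts interferon-gamma production by cells that already carry those receptors. Most of the cytokine and chemokine genes are induced quickly by T cell receptor stimulation. IL-2, which signals through STAT5, is known to raise expression of Il12rb2 and Ifng in activated T cells.

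Gene-level counts summed to between 14628806 and 24518362 per library, so even the rarest of the 10 genes, Csf2, had at least 39 reads in each library. Cd3e was at 605 to 1152 CPM (read counts scaled to the library size, which was adjusted by trimmed mean of M-values) in all libraries. The sort markers followed the cell type labels. The 5 CD8 IgG libraries carry a free-text description that names another tissue than their source and tissue labels, which were used here. In batches 181201 and 181212 the IL-2 response genes Il2ra, Cish and Socs2 were lower in the anti-IL-2 than in the IgG library in every population. In batch 190306 they went the other way in every population: Il2ra, for example, was at 224 CPM in anti-IL-2 and 65.9 CPM in IgG CD4 spleen cells, a difference of 1.75 on the log2 scale, against a difference of -1.96 in batch 181201 and -2.04 in batch 181212. The treatment labels of batch 190306 are therefore in doubt. They were used as given, and whether they are right was not tested. If its anti-IL-2 and IgG labels were exchanged, every treatment difference within that batch would take the opposite sign, while comparisons of tissues or lineages within batch and treatment would not change. Treatment results are given for all batches, for batches 181201 and 181212, and within each batch. Where bulk libraries differ in a gene, a change in the number of cells that express it and a change in RNA per cell cannot be told apart.

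By mean level per kilobase of exon, Ccl5 was the most abundant of the 10 transcripts in 3 of the 4 populations. Its level averaged 957 CPM per kb in CD8 gut cells and 721 CPM per kb in CD8 spleen cells, the next highest level in CD8 gut cells being Ccl3, at 424 CPM per kb. In CD4 gut cells Ccl5, at 269 CPM per kb, lay close to Ccl3 at 243 CPM per kb and Ccl4 at 223 CPM per kb. That order did not hold in the CD4 gut libraries of batch 190306. There Ccl5 was at 49.5 (anti-IL-2) and 91.0 (IgG) CPM per kb, against 216 and 169 for Ccl3 and 207 and 167 for Ccl4. In CD4 spleen cells Il18r1 led with 239.9 CPM per kb. Csf2 was the least abundant in every population, between 3.61 CPM per kb in CD8 spleen cells and 28.7 CPM per kb in CD4 gut cells. Between libraries the IL-18 receptor chains varied least, over a 2.30-fold range for Il18r1 and a 2.26-fold range for Il18rap, and Xcl1 varied most, over a 58.2-fold range.

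**Figure D1:**
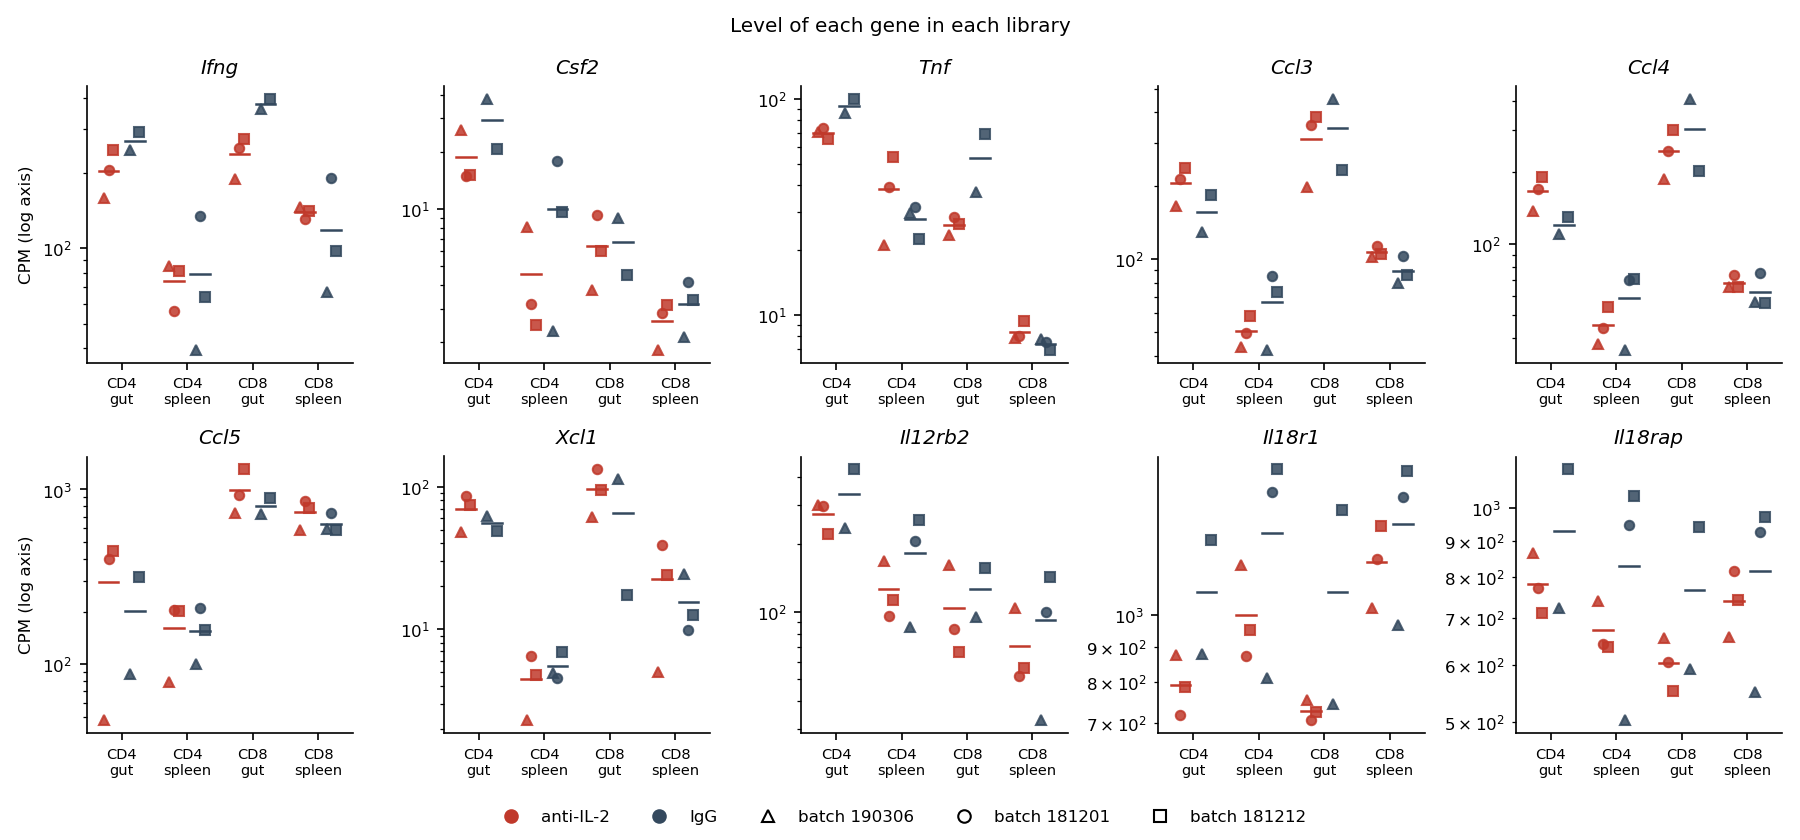
Level of each of the 10 genes in CPM (log axis) in each library, by population, with anti-IL-2 libraries in red left of IgG libraries in blue. Marker shape gives the batch, and bars give the group mean. Most cytokine and chemokine genes are highest in gut cells, with the Xcl1 libraries of CD4 gut between 48.0 and 86.5 CPM and those of CD4 spleen between 2.28 and 6.92 CPM, while Il18r1 stays between 705 and 1619.9 CPM in all libraries.

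Several of the genes are neighbours in the genome. Ccl3 (chr11:83647844-83649355, minus strand) and Ccl4 (chr11:83662584-83664683, plus strand) are 13.2 kb apart in mouse build GRCm38, with Ccl5 (chr11:83525778-83530518, minus strand) 117 kb from Ccl3. Il18r1 (chr1:40465552-40500854) and Il18rap (chr1:40515362-40551705) lie on the plus strand of the same chromosome, 14.5 kb apart. Within populations, the log2 CPM of the neighbours varied together over the 22 libraries, with a Pearson r of 0.95 for Ccl3 and Ccl4 and of 0.94 for Il18r1 and Il18rap. Il12rb2 (chr6:67291318-67376188, minus strand), on another chromosome, had an r of 0.82 with Il18rap and of 0.73 with Il18r1. These libraries share batches and treatments, so the correlations are descriptions only. Ifng (chr10:118441046-118445892, plus strand), Csf2 (chr11:54247271-54249667, minus strand), Tnf (chr17:35199381-35202007, minus strand) and Xcl1 (chr1:164931644-164935527, minus strand) lie apart from the rest. The Il12rb2 gene overlaps Serbp1 on the opposite strand, and the strand setting of the counting is not given in the sources used here, so reads of the overlap could be shared. Serbp1 was at 545 to 728 CPM and passed in no comparison of treatment or tissue, and it was lower in CD4 than in CD8 cells, with log2 fold changes of -0.14 in spleen and -0.12 in gut.

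The promoters of the 3 receptor chains are shown because their transcripts varied together, and those of Ifng and Tnf because they are the effector cytokines of the set. Each is the RefSeq window of GRCm38.p6 from 250 bases before the transcript start to 50 bases after it. Searched on both strands were 4 motifs: a TATA box (TATAAA), a STAT motif (TTCNNNGAA), an AP-1 motif (TGANTCA) and an NF-kappaB motif, and matches are in capitals. Entries existed for 8 of the 10 genes; Ccl4 and Ccl5 had none.
Ifng: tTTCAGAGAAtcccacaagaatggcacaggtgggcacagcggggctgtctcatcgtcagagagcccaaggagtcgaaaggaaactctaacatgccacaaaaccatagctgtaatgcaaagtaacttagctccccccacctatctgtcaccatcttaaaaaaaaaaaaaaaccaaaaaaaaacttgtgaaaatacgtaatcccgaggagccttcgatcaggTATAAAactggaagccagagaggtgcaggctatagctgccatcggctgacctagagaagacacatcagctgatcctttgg
Tnf: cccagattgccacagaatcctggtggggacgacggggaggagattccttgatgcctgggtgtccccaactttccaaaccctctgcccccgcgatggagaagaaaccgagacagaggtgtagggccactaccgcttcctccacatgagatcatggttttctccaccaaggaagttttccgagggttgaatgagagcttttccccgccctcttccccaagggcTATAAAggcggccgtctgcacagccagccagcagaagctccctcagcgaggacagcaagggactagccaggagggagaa
Il12rb2: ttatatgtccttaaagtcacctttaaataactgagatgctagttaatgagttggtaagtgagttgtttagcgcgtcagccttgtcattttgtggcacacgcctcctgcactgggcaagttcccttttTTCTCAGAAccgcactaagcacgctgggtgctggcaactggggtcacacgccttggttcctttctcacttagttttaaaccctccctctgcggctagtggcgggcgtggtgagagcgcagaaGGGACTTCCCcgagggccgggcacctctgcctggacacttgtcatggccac
Il18r1: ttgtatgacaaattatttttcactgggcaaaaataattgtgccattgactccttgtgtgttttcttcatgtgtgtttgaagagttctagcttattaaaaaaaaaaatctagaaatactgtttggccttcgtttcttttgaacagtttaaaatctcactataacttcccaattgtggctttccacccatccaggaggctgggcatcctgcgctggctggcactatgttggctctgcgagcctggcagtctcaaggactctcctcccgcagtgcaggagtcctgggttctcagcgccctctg
Il18rap: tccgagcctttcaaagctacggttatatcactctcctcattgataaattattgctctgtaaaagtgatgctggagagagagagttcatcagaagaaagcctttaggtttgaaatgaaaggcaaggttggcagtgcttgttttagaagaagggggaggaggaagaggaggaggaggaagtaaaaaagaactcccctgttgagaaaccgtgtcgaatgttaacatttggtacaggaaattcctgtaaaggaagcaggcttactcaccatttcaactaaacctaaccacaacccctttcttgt
The windows are chr10:118440796-118441095 (plus strand) for Ifng, chr17:35201958-35202257 (minus strand) for Tnf, chr6:67376139-67376438 (minus strand) for Il12rb2, chr1:40465302-40465601 (plus strand) for Il18r1 and chr1:40515112-40515411 (plus strand) for Il18rap. Ifng had a TATA box from -30 to -25 and a STAT motif from -249 to -241, and Tnf a TATA box from -29 to -24. Il12rb2 had a STAT motif from -123 to -115 and an NF-kappaB motif across its start, from -1 to 9, where base 1 is the first base of the transcript. Il18r1 and Il18rap held none of the 4 motifs, nor did the windows of Ccl3, Xcl1 and Csf2. Among 32851 promoters of the same length, 13.6% held the TATA box, 8.3% the STAT motif, 7.81% the AP-1 motif and 4.51% the NF-kappaB motif.

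Gut and spleen cells were compared within batch and treatment. In CD4 cells, 8 of the 10 genes were higher and 1 lower in gut than in spleen, in a comparison in which 26.6% of the 12841 genes tested were called higher and 22.7% lower. In CD8 cells, 7 were higher and 1 lower, against 24.8% and 23% of all genes. In either direction, 49.3% of all genes passed in CD4 cells and 47.8% in CD8 cells. The median log2 fold change of the 10 genes was 1.41 in CD4 cells and 1.42 in CD8 cells, against medians over all genes tested of 0.01 and -0.00043. The share of all genes whose gut and spleen libraries do not overlap was not counted.

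Among the cytokines, Ifng, which encodes interferon-gamma, was at 159.8, 207, 247, 248 and 292 CPM in the 5 CD4 gut libraries, against a lowest, median and highest level of 39.2, 72.5 and 135 CPM in the 6 CD4 spleen libraries. In CD8 cells it was at 191, 254, 274, 362 and 399 CPM in gut libraries, against 66.6, 136 and 191 CPM in spleen libraries. Gut and spleen libraries did not overlap in CD4 cells, and in CD8 cells the lowest gut library and the highest spleen library were both at 191 CPM. Ifng was higher in gut by 1.81 ± 0.26 on the log2 scale in CD4 cells (adjusted p = 6.7e-05) and by 1.38 ± 0.26 in CD8 cells (adjusted p = 0.00059; log2 fold change ± SE throughout), in each of the 5 batch and treatment pairs of either lineage.

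Tnf, which encodes the inflammatory cytokine TNF-alpha, was at 65.4, 70.3, 73.9, 86.3 and 101 CPM in CD4 gut libraries, against 21.3, 30.8 and 54.4 CPM (lowest, median, highest) in CD4 spleen libraries. In CD8 cells it was at 23.6, 26.4, 28.6, 37.1 and 69.4 CPM in gut, against 6.92, 7.82 and 9.41 CPM in spleen. No gut library overlapped the spleen libraries of its lineage. The fold change was 1.25 ± 0.26 in CD4 cells (adjusted p = 0.0012) and 2.16 ± 0.29 in CD8 cells (adjusted p = 3.3e-05). Without batch 190306 the CD4 value was 1.01 and no longer passed (adjusted p = 0.085). Csf2, which encodes the myeloid growth factor GM-CSF, was at 14.9, 15.1, 20.6, 26.1 and 38.2 CPM in CD4 gut libraries, against 2.28, 5.62 and 18.0 CPM in CD4 spleen libraries, a fold change of 2.06 ± 0.41 (adjusted p = 0.00079). In CD8 cells, where it stayed below 10 CPM, its fold change of 1.46 ± 0.46 passed (adjusted p = 0.017) but was 1.36 without batch 190306 (adjusted p = 0.055) and 1.19 without CD8 gut anti-IL-2 replicate 1 (adjusted p = 0.059).

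The chemokine Xcl1, a ligand of the XCR1 receptor of cross-presenting dendritic cells, had the largest fold change of the 10 genes in CD4 cells. It was at 48.0, 49.2, 62.2, 74.6 and 86.5 CPM in CD4 gut libraries, against 2.28, 4.84 and 6.92 CPM in CD4 spleen libraries, a fold change of 3.63 ± 0.40 (adjusted p = 5.6e-06). In CD8 cells it was at 17.3, 61.5, 94.6, 113 and 133 CPM in gut, against 5.03, 18.2 and 38.7 CPM in spleen, a fold change of 2.07 ± 0.35 (adjusted p = 0.00027). Only the CD8 gut IgG library of batch 181212, at 17.3 CPM, lay within the range of CD8 spleen libraries.

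Ccl3 and Ccl4, chemokines that draw in T cells and macrophages, were higher in gut in both lineages. Ccl3 was at 129, 165, 183, 213 and 237 CPM in CD4 gut libraries, against 42.4, 53.9 and 84.9 CPM in CD4 spleen libraries, and at 197, 232, 355, 383 and 455 CPM in CD8 gut libraries, against 79.8, 102 and 113 CPM in CD8 spleen libraries. Its fold changes were 1.74 ± 0.22 in CD4 cells and 1.77 ± 0.21 in CD8 cells (adjusted p = 1.6e-05 and 1.2e-05). Ccl4 had fold changes of 1.58 ± 0.22 in CD4 cells and 2.09 ± 0.22 in CD8 cells (adjusted p = 4.5e-05 and 3.3e-06). Neither gene had overlapping gut and spleen libraries.

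Ccl5, a chemokine that effector and memory T cells store in quantity, did not pass in either lineage over all batches, at 0.58 ± 0.34 in CD4 cells (adjusted p = 0.17) and 0.44 ± 0.32 in CD8 cells (adjusted p = 0.28). The CD4 gut libraries of batch 190306 stood apart, at 47.6 CPM with anti-IL-2 and 87.4 CPM with IgG, while the other 3 CD4 gut libraries were at 317, 398 and 443 CPM. Without batch 190306 Ccl5 was higher in gut in both lineages, by 1.002 in CD4 cells (adjusted p = 1.3e-05) and by 0.51 in CD8 cells (adjusted p = 0.0015), and it passed in CD4 cells without CD4 gut anti-IL-2 replicate 3 alone (0.86, adjusted p = 0.013).

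The receptor chains differed from one another. Il12rb2 was higher in CD4 gut libraries, at 222, 236, 297, 299.9 and 433 CPM, than in CD4 spleen libraries, at 85.8, 141 and 256 CPM (lowest, median, highest), with a fold change of 1.13 ± 0.17 (adjusted p = 7.4e-05). The CD8 fold change was 0.64 ± 0.17 (adjusted p = 0.0069), and 0.36 without batch 190306 (adjusted p = 0.096). Il18r1, the ligand-binding IL-18 receptor chain, was lower in gut, with a fold change of -0.52 ± 0.10 in CD8 cells (adjusted p = 0.00048) and of -0.26 ± 0.10 in CD4 cells (adjusted p = 0.04). The CD4 call was lost, at values between -0.27 and -0.19, without CD4 gut anti-IL-2 replicate 1, 2 or 3, CD4 gut IgG replicate 1, CD4 spleen anti-IL-2 replicate 3 or CD4 spleen IgG replicate 1 or 2. Il18rap was at 0.25 ± 0.08 in CD4 cells (adjusted p = 0.011), or 0.14 without batch 190306 (adjusted p = 0.14) and 0.19 without CD4 gut IgG replicate 2 (adjusted p = 0.055), and at -0.15 ± 0.08 in CD8 cells (adjusted p = 0.1). The CD8 value passed without batch 190306 (-0.28), CD8 gut IgG replicate 2 (-0.22) or CD8 spleen anti-IL-2 replicate 3 (-0.21).

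Whether the gut and spleen difference was itself different between the lineages was tested as an interaction. It passed for 1 of the 10 genes, Il18rap, at 0.40 ± 0.10 for CD4 minus CD8 (adjusted p = 0.036), where 4.65% of all genes passed. The call was lost without batch 190306 (0.43, adjusted p = 0.069). It was also lost, at values between 0.34 and 0.41, without any 1 of 11 libraries: CD4 gut anti-IL-2 replicate 3 and IgG replicate 2, CD4 spleen anti-IL-2 replicates 1 and 2 and IgG replicate 3, CD8 gut anti-IL-2 replicates 1 to 3 and IgG replicate 1, and CD8 spleen anti-IL-2 replicates 1 and 2. The largest other differences were 1.56 ± 0.52 for Xcl1 and -0.91 ± 0.38 for Tnf (adjusted p = 0.11 and 0.19), the Xcl1 difference passing without CD4 spleen IgG replicate 2 (1.89, adjusted p = 0.047).

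**Figure D2:**
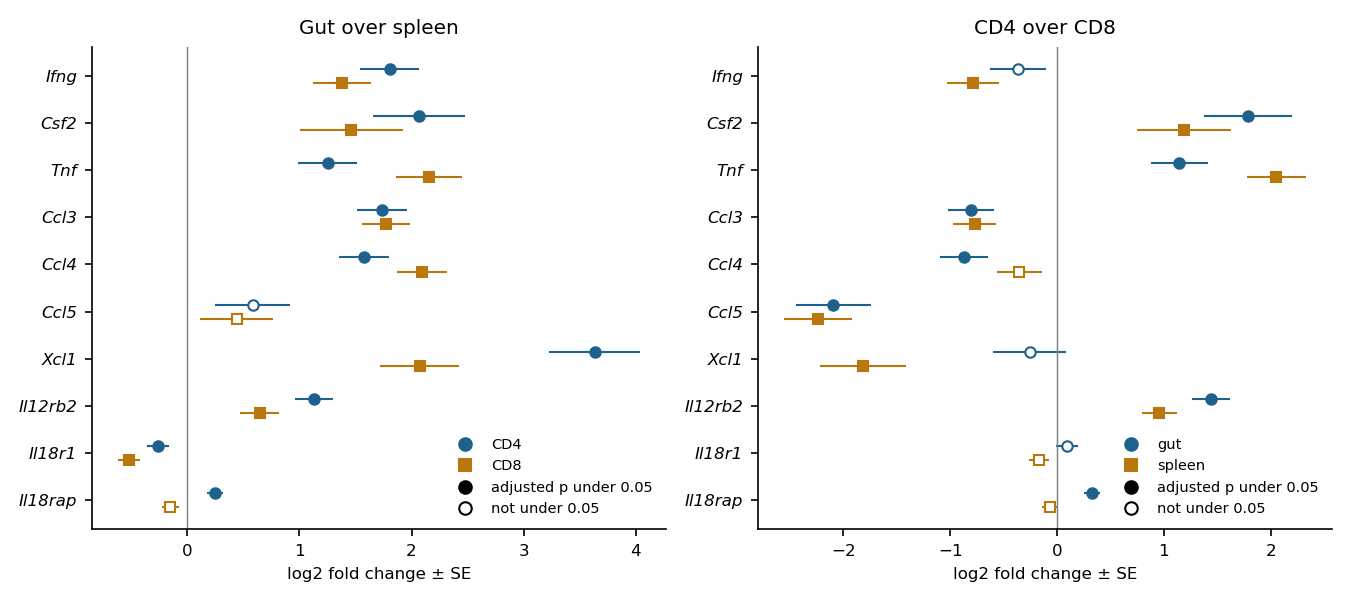
Log2 fold change with its standard error (horizontal axis) for each gene, gut over spleen on the left for CD4 and CD8 cells, and CD4 over CD8 on the right for gut and spleen. Filled markers have an adjusted p under 0.05. The 3 cytokines, Ccl3, Ccl4, Xcl1 and Il12rb2 lie right of 0 in gut over spleen in both lineages, Il18r1 left of it, and Ccl5 lies furthest left in CD4 over CD8, at -2.09 in gut and -2.24 in spleen.

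Related genes were counted in the same comparisons, in which 26.6% of all genes were called higher and 22.7% lower in CD4 cells, and 24.8% and 23% in CD8 cells; no list was tested against other genes. Of 16 Th1 regulators and signalling genes, 10 were higher and 1 lower in CD4 gut than in CD4 spleen cells, and 9 were higher and 1 lower in CD8 cells, with list medians of 0.26 and 0.20, against 0.01 and -0.00043 over all genes. Runx3, a transcription factor that promotes Ifng expression, was higher by 0.68 ± 0.06 in CD4 cells (adjusted p = 4.6e-08), and Il12rb1, the shared chain of the IL-12 and IL-23 receptors, by 1.29 ± 0.10 (adjusted p = 6.5e-08). Of 26 other cytokine and chemokine genes tested, 14 were higher and 5 lower in CD4 cells, among them Il17a, by 5.47 ± 0.32, and Il22, by 4.94 ± 0.44 (adjusted p = 5.8e-10 and 8.2e-08). Both were at low levels over all libraries, Il17a at 0.047 to 14.2 CPM and Il22 at no more than 6.07 CPM, with 7 libraries at 0. Of 10 receptors of the encoded proteins tested, 5 were higher and 3 lower in CD4 gut cells. Of 18 interferon-gamma responsive genes, 8 were higher and 4 lower in CD4 gut cells, and 12 were higher and 2 lower in CD8 gut cells.

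Immediate early genes are induced within minutes of T cell receptor stimulation. Of 18 tested, 15 were higher and 2 lower in CD4 gut than in CD4 spleen cells (26.6% and 22.7% of all genes), and 16 were higher and none lower in CD8 cells (24.8% and 23% of all genes), among them Egr1 by 2.22 ± 0.30 in CD4 cells (adjusted p = 3.8e-05) and 3.22 ± 0.32 in CD8 cells (adjusted p = 2.1e-06). Their summed level was 2966 to 7429.6 CPM in gut anti-IL-2 libraries and 7553 to 10591 CPM in gut IgG libraries, against 995 to 2748 CPM in spleen libraries. The 5 epithelial markers summed to 17.5 to 98.5 CPM in gut and 5.54 to 10.5 CPM in spleen libraries. Cdh1 alone reached 89.0 CPM, and each of the others stayed at or below 16.4 CPM. The 13 macrophage markers summed to 60.2 to 179.7 CPM in gut and 63.1 to 294 CPM in spleen libraries, with Vsig4 at 0 in 21 of 22 libraries and Adgre1 at no more than 8.75 CPM. The part of these lists in the tissue differences was not tested, nor was what induced the immediate early genes.

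**Figure D3:**
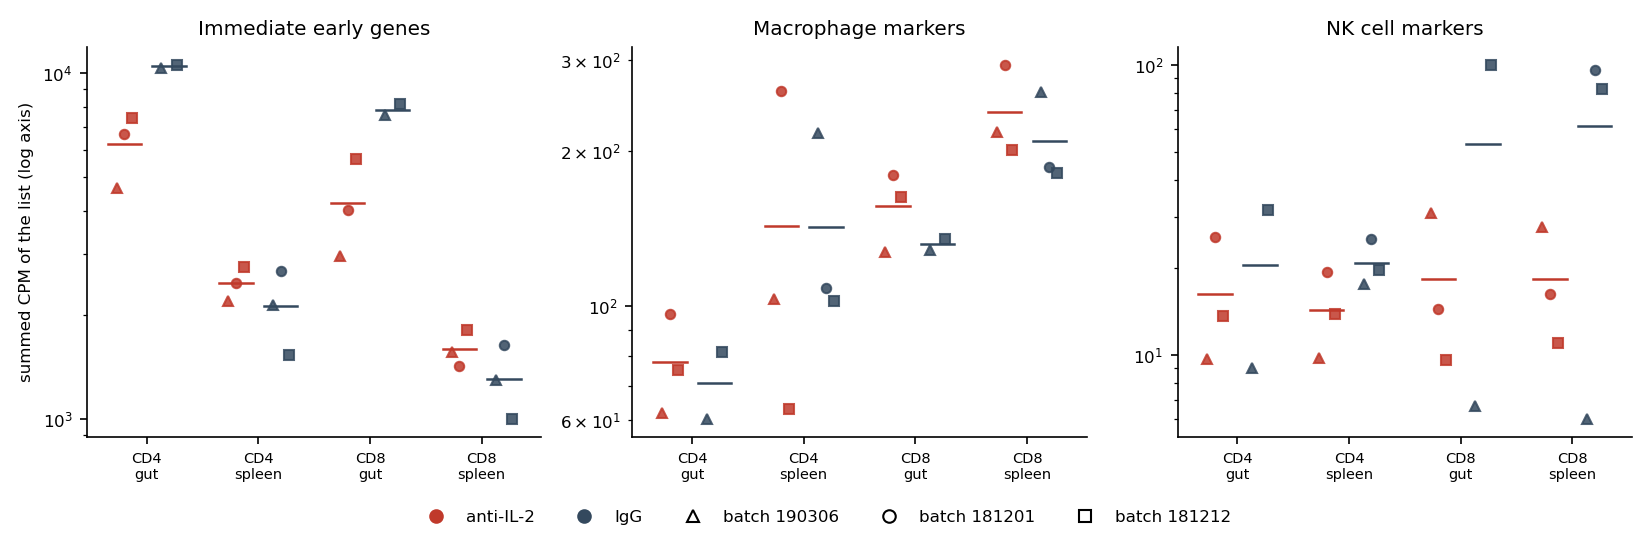
Summed CPM (log axis) of the immediate early genes, macrophage markers and NK cell markers in each library, by population, with anti-IL-2 libraries in red left of IgG libraries in blue and marker shape giving the batch. Immediate early sums of gut libraries lie between 2966 and 10591 CPM, above all spleen libraries at 995 to 2748 CPM, and NK cell marker sums of CD8 IgG libraries are at 82.5 to 100.3 CPM in batches 181201 and 181212 but near 6 CPM in batch 190306.

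CD4 and CD8 cells were compared within tissue, batch and treatment. In spleen, 3 genes were higher and 4 lower in CD4 than in CD8 cells, where 28.9% of all genes were called higher and 29.2% lower (58.1% in all). In gut, 4 were higher and 3 lower, where 22.9% were called higher and 23.1% lower (46% in all). The median log2 fold change of the 10 genes was -0.26 in spleen and -0.08 in gut, against 0.01 and -0.01 over all genes. The share of all genes whose CD4 and CD8 libraries do not overlap was not counted.

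Csf2, Tnf and Il12rb2 were higher in CD4 cells in both tissues. Tnf was higher by 2.05 ± 0.28 in spleen (adjusted p = 1.5e-05), where every CD4 library was above every CD8 library, and by 1.15 ± 0.26 in gut (adjusted p = 0.0026). The gut value was 0.98 without batch 190306 and did not pass (adjusted p = 0.1). Il12rb2 was higher by 0.96 ± 0.16 in spleen (adjusted p = 0.00013) and by 1.45 ± 0.18 in gut (adjusted p = 1.1e-05), in each batch and treatment pair. Csf2 was higher by 1.79 ± 0.41 in gut (adjusted p = 0.0025), and by 1.19 ± 0.44 in spleen (adjusted p = 0.031). The spleen call did not pass without batch 190306 (1.11, adjusted p = 0.065) nor, at values between 0.93 and 1.11, without CD4 spleen anti-IL-2 replicate 3, CD4 spleen IgG replicate 1 or 2, CD8 spleen anti-IL-2 replicate 3 or CD8 spleen IgG replicate 1 or 3.

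Ccl5 and Ccl3 were lower in CD4 cells in both tissues. Ccl5 was at 78.8, 179 and 210.4 CPM (lowest, median, highest) in CD4 spleen libraries, against 584, 665 and 864 CPM in CD8 spleen libraries, a fold change of -2.24 ± 0.32 (adjusted p = 3.3e-05), and it was lower in CD4 gut cells, at -2.09 ± 0.35 (adjusted p = 0.00025). The lineages did not overlap in either tissue. Ccl3 was lower, at -0.77 ± 0.20 in spleen and -0.81 ± 0.22 in gut (adjusted p = 0.0047 and 0.0071). Ccl4 passed in gut, at -0.87 ± 0.22 (adjusted p = 0.0049), and was at -0.35 ± 0.21 in spleen (adjusted p = 0.17), where it passed without CD4 spleen IgG replicate 2 (-0.54, adjusted p = 0.022).

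Ifng and Xcl1 were lower in CD4 than in CD8 cells in spleen. Ifng had a fold change of -0.79 ± 0.24 (adjusted p = 0.012) and Xcl1 of -1.82 ± 0.40 (adjusted p = 0.0013), each in all 6 spleen pairs. In gut their values were -0.36 ± 0.26 and -0.26 ± 0.34 (adjusted p = 0.27 and 0.57). The IL-18 receptor chains were close between lineages: Il18r1 was at -0.17 ± 0.09 in spleen and 0.09 ± 0.10 in gut, and Il18rap at -0.07 ± 0.07 in spleen, while Il18rap in gut was higher in CD4 cells by 0.33 ± 0.08 (adjusted p = 0.0018). Among Th1 regulators, Tbx21, the Th1 master regulator T-bet, was lower in CD4 spleen cells, at -0.67 ± 0.06 (adjusted p = 5.4e-08), in a list with 5 higher and 4 lower of 16, where 28.9% of all genes were higher and 29.2% lower.

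Anti-IL-2 and IgG cells were first compared over all 3 batches, with batch as a term. No gene of the table passed in any population (0% of 12841 in each), and so none of the 10. At an unadjusted p under 0.05 the count over all genes was 750 in CD4 gut (5.84%), 282 in CD4 spleen (2.2%), 953 in CD8 gut (7.42%) and 148 in CD8 spleen (1.15%), and among the 10 genes it was 2, Tnf (-1.03 ± 0.27) and Ifng (-0.81 ± 0.38), both in CD8 gut. DESeq2 called 8 genes in CD4 gut, 18 in CD8 gut and none in either spleen population, limma voom called none in any, and neither called any of the 10. A 2-fold change simulated in 200 of 12495 genes was recovered for 87.5% of them in this design for CD4 spleen cells. Those data were drawn without an opposite batch, batch shifts or shared deviations of libraries, and no gene of low level was changed. The share therefore does not give the power of the real comparison, and treatment comparisons in gut were not simulated.

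In batches 181201 and 181212 alone, by contrast, 20.1% of 13073 genes passed in CD4 spleen, 12.1% in CD8 spleen, 11.7% in CD4 gut and 10.7% in CD8 gut. Of the 10 genes, 1 rose and 5 fell with anti-IL-2 in CD4 spleen, where 9.8% of all genes rose and 10.3% fell. In CD8 spleen 1 rose and 3 fell (6.06% and 6.08% of all genes), in CD4 gut none rose and 2 fell (6.04% and 5.68%), and in CD8 gut 2 rose and 3 fell (5.51% and 5.22%). Their median log2 fold change was -0.53 in CD4 spleen, 0.01 in CD8 spleen, -0.49 in CD4 gut and -0.18 in CD8 gut, against medians between -0.0048 and 0.012 over all genes. Each gut IgG group holds 1 library here and is assumed to vary like the other groups.

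The IL-18 receptor chains fell with anti-IL-2 in all 4 populations of these batches. Il18r1 was at 872 (anti-IL-2) against 1502 (IgG) CPM in CD4 spleen cells of batch 181201 and at 950.1 against 1619.9 CPM in batch 181212, a log2 fold change of -0.77 ± 0.05 (adjusted p = 6.3e-07). In CD8 spleen cells it was at 1202 (anti-IL-2) against 1479 (IgG) CPM and at 1344 against 1611 CPM in the same batches, a log2 fold change of -0.29 ± 0.05 (adjusted p = 0.0021). In gut, the anti-IL-2 libraries were at 717 and 789 CPM against 1282 CPM with IgG in CD4 cells, and at 705 and 724 CPM against 1415 CPM with IgG in CD8 cells, log2 fold changes of -0.70 ± 0.06 and -0.93 ± 0.06 (adjusted p = 3.3e-05 and 3.6e-06). Every anti-IL-2 library of a population lay below every IgG library. The groups are small here, and the share of all genes that separate so was not counted.

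Il18rap had a fold change of -0.62 ± 0.07 in CD4 spleen (adjusted p = 3.6e-05), -0.63 ± 0.09 in CD4 gut (adjusted p = 0.00079), -0.72 ± 0.09 in CD8 gut (adjusted p = 0.00035) and -0.29 ± 0.07 in CD8 spleen (adjusted p = 0.014). The CD8 spleen call was lost without CD8 spleen anti-IL-2 replicate 2 or IgG replicate 2, at -0.23 in each case (adjusted p = 0.18 and 0.15). Il12rb2 was at 96.0 (anti-IL-2) against 208 (IgG) CPM in CD4 spleen cells of batch 181201 and at 113 against 256 CPM in batch 181212, a log2 fold change of -1.14 ± 0.25 (adjusted p = 0.026). In CD8 spleen cells it was at 51.9 (anti-IL-2) against 99.4 (IgG) CPM and at 56.4 against 143 CPM, a log2 fold change of -1.17 ± 0.26 (adjusted p = 0.039). The gut values were -0.69 ± 0.30 in CD4 and -1.02 ± 0.31 in CD8 cells (adjusted p = 0.21 and 0.098). The Il12rb2 calls depended on single libraries: the CD4 spleen value lay between -0.99 and -1.27 and did not pass without any 1 of its 4 libraries, and the CD8 spleen call was lost without anti-IL-2 replicate 1 or 2 or IgG replicate 2, at -1.14, -1.20 and -0.87.

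Among the cytokines, Csf2 fell in CD4 spleen cells. It was at 3.15 (anti-IL-2) against 18.0 (IgG) CPM in batch 181201 and at 2.46 against 9.69 CPM in batch 181212, a log2 fold change of -2.26 ± 0.23 (adjusted p = 2.1e-05). It was at -0.33 ± 0.26 in CD8 spleen, -0.63 ± 0.24 in CD4 gut and 0.56 ± 0.29 in CD8 gut, none of which passed. The difference between lineages in spleen, -1.93 ± 0.36 for CD4 minus CD8, passed (adjusted p = 0.022, where 0.918% of all genes passed), but was lost, at values between -1.97 and -1.56, without CD4 spleen anti-IL-2 replicate 1 or 2 or IgG replicate 1, or without CD8 spleen anti-IL-2 replicate 2 or IgG replicate 1 or 2.

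Tnf rose with anti-IL-2 in CD4 spleen cells and fell in CD8 gut cells. In CD4 spleen cells it was at 39.5 (anti-IL-2) against 31.9 (IgG) CPM in batch 181201 and 54.4 against 22.6 CPM in batch 181212, a rise by 0.80 ± 0.19 (adjusted p = 0.016), which was 0.53 without CD4 spleen IgG replicate 2 (adjusted p = 0.084). In CD8 gut cells it was at 28.6 and 26.4 CPM with anti-IL-2 against 69.4 CPM with IgG, a log2 fold change of -1.36 ± 0.22 (adjusted p = 0.006), or -1.30 without CD8 gut anti-IL-2 replicate 2 (adjusted p = 0.057). The treatment difference of gut minus that of spleen was -1.34 ± 0.28 in CD4 cells (adjusted p = 0.03) and -1.62 ± 0.34 in CD8 cells (adjusted p = 0.047). In these comparisons 5.39% of all genes passed in CD4 cells and 2.39% in CD8 cells. The CD4 call was lost, at values between -1.41 and -1.03, without CD4 gut anti-IL-2 replicate 1 or 2 or CD4 spleen IgG replicate 2. The CD8 call was lost, at values between -1.79 and -1.48, without any 1 of CD8 gut anti-IL-2 replicates 1 and 2, CD8 spleen anti-IL-2 replicates 1 and 2 and CD8 spleen IgG replicates 1 and 2.

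Ifng did not pass in any population of these batches, with values of -0.49 ± 0.48 in CD4 spleen, -0.06 ± 0.46 in CD8 spleen, -0.43 ± 0.55 in CD4 gut and -0.68 ± 0.55 in CD8 gut. The spleen batches disagreed: in CD4 cells Ifng was at 55.9 (anti-IL-2) against 135 (IgG) CPM in batch 181201 but at 81.0 against 64.0 CPM in batch 181212. The standard errors are close to these values or larger, so a change of this size was not detectable with these libraries.

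Of the chemokines, Xcl1 rose with anti-IL-2 in CD8 cells. In CD8 spleen it was at 38.7 (anti-IL-2) against 9.91 (IgG) CPM in batch 181201 and at 23.9 against 12.5 CPM in batch 181212, a rise by 1.45 ± 0.28 (adjusted p = 0.016). That call was lost without CD8 spleen anti-IL-2 replicate 1 or IgG replicate 1, at 1.15 and 1.12 (adjusted p = 0.085 and 0.094). In CD8 gut it was at 133 and 94.6 CPM with anti-IL-2 against 17.3 CPM with IgG, a rise by 2.57 ± 0.34 (adjusted p = 0.0051), which rests on a single IgG library. In CD4 cells it was at -0.04 ± 0.38 in spleen and 0.59 ± 0.30 in gut (adjusted p = 0.98 and 0.26).

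Ccl3 fell in CD4 spleen cells, to 49.7 (anti-IL-2) against 84.9 (IgG) CPM in batch 181201 and 58.1 against 73.1 CPM in batch 181212, a log2 fold change of -0.54 ± 0.11 (adjusted p = 0.0067). Without CD4 spleen anti-IL-2 replicate 1 it was at -0.40, and without IgG replicate 1 at -0.42, and passed in neither case (adjusted p = 0.067 and 0.068). In CD8 gut cells it was at 355 and 383 CPM with anti-IL-2 against 232 CPM in the single IgG library, a rise by 0.66 ± 0.14 (adjusted p = 0.012) that was lost without CD8 gut anti-IL-2 replicate 2 (0.58, adjusted p = 0.079). The treatment difference of CD4 gut minus that of CD4 spleen passed for Ccl3, at 0.84 ± 0.18 (adjusted p = 0.022), and for Csf2, at 1.64 ± 0.34 (adjusted p = 0.015). The Ccl3 difference was lost without CD4 gut anti-IL-2 replicate 2 (0.71) or CD4 spleen anti-IL-2 replicate 1 (0.68), and the Csf2 difference without the same libraries (1.31 and 1.63). Ccl4 and Ccl5 passed in no population, Ccl4 being at -0.52 ± 0.17 in CD4 spleen (adjusted p = 0.071).

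For Il18r1, the fall was larger in CD4 than in CD8 spleen cells, with a difference of -0.48 ± 0.07 (adjusted p = 0.009), and larger in CD8 gut than in CD8 spleen cells, with a difference of -0.64 ± 0.08 (adjusted p = 0.0025). The first of these did not pass without CD8 spleen anti-IL-2 replicate 2 (-0.45, adjusted p = 0.055).

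Related genes were counted in the same batches. Of 16 Th1 regulators, 6 rose and 5 fell in CD4 spleen, where 20.1% of all genes passed, and 4 rose and 3 fell in CD8 spleen, where 12.1% passed. In gut, 4 rose and none fell in CD4 cells (11.7% of all genes), and 1 rose and none fell in CD8 cells, a smaller share than the 10.7% of all genes. Tbx21 fell in CD4 spleen, at -0.73 ± 0.10 (adjusted p = 0.00049), and in CD8 spleen, at -0.46 ± 0.10 (adjusted p = 0.012). Ifngr1, a chain of the interferon-gamma receptor, fell in all 4 populations, with a fold change of -0.75 ± 0.07 in CD4 spleen (adjusted p = 1.1e-05). Of 18 interferon-gamma responsive genes, 5 rose and 1 fell in CD4 spleen and 4 rose and none fell in each of the other populations, with list medians between 0.03 and 0.10, so most members did not pass. Iigp1 and Gbp5 rose in all 4 populations, Iigp1 by 1.34 ± 0.15 in CD4 spleen (adjusted p = 4e-05). Klrb1c, an NK cell marker that activated T cells can also express, fell, at -2.75 ± 0.13 in CD8 spleen and -3.35 ± 0.15 in CD8 gut (adjusted p = 2.7e-07 and 1.9e-07), where its level made up nearly all of the NK marker sum, with Ncr1 at no more than 0.99 CPM and Klra4 at 0 in all 22 libraries. Its part in the Xcl1 differences of CD8 cells, which run the other way, was not tested.

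**Figure D4:**
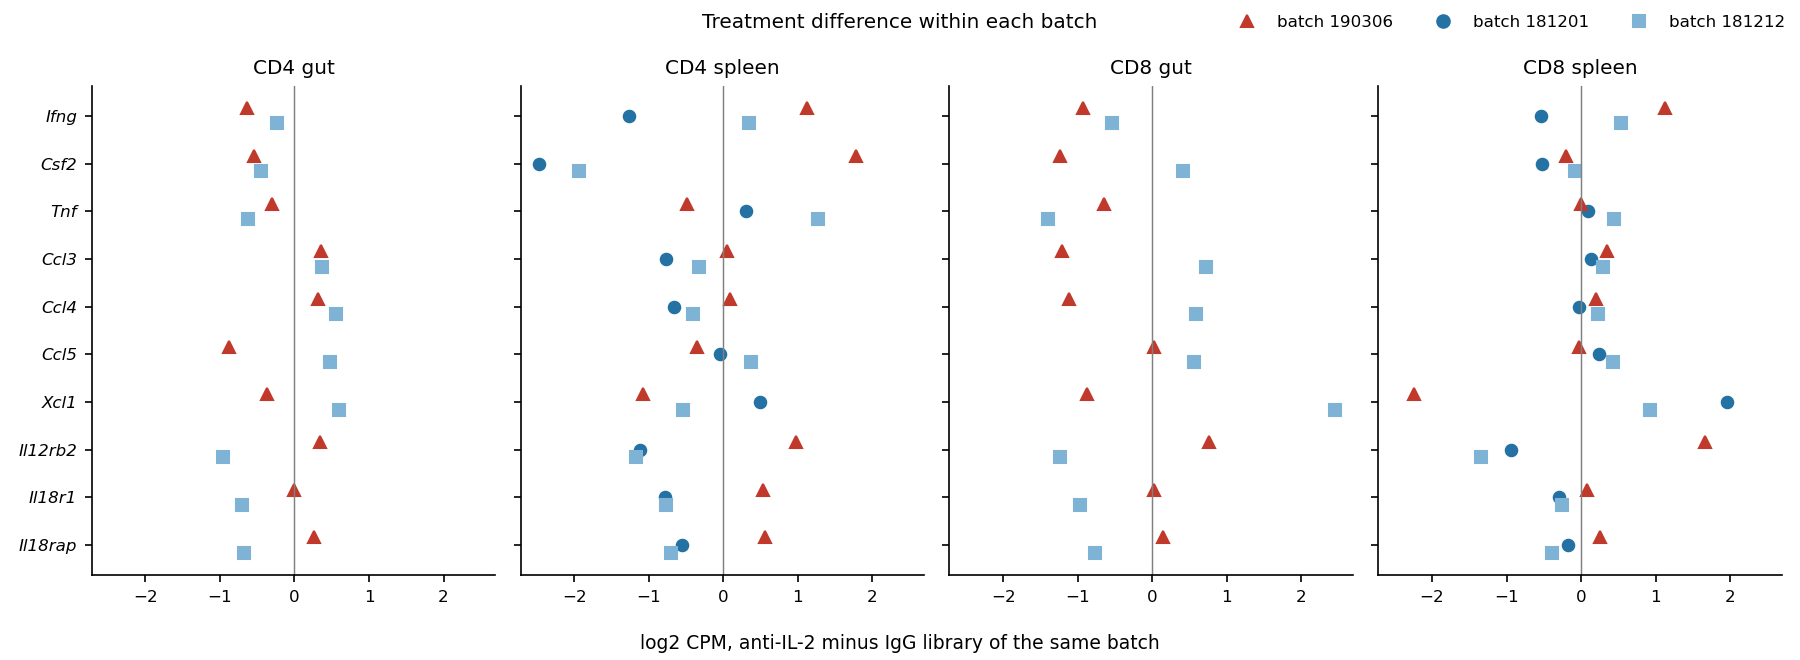
Difference in log2 CPM between the anti-IL-2 and the IgG library of the same batch and population (horizontal axis) for each gene, with the batch given by marker and colour. In spleen, Il12rb2, Il18r1 and Il18rap lie left of 0 in batches 181201 and 181212 and right of 0 in batch 190306, and Xcl1 in CD8 cells the other way round. Tnf and Ifng lie left of 0 in both batches of both gut populations, with batch 190306 drawn as labelled.

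Batch 190306 was then set against the other batches, with its libraries named as labelled. In this batch Il12rb2 was at 169 (anti-IL-2) against 85.8 (IgG) CPM in CD4 spleen, 104 against 32.8 CPM in CD8 spleen, 299.9 against 236 CPM in CD4 gut and 162 against 94.9 CPM in CD8 gut, so it was higher with anti-IL-2 in all 4 populations. Il18r1 was at 1179 (anti-IL-2) against 812 (IgG) CPM in CD4 spleen, and its other within-batch differences were between -0.0043 and 0.078. Il18rap was higher with anti-IL-2 in all 4 populations, by 0.14 to 0.56. Xcl1 in CD8 spleen was at 5.03 (anti-IL-2) against 24.3 (IgG) CPM, lower where the other batches were higher.

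A term for a treatment effect of batch 190306 of its own, beside a shift of the batch shared by all groups, passed for 3 of the 10 genes in CD4 spleen (24.2% of all genes), 4 in CD8 spleen (18.6%), 4 in CD4 gut (21.4%) and 3 in CD8 gut (16.7%). The IgG libraries of the batch, over all populations, set that shift. A term can therefore differ from what the within-batch differences of its own population give. Il12rb2, Il18r1 and Il18rap passed in all 4 populations, batch 190306 being higher, and with exchanged labels in that batch these terms would not keep this meaning. The Il12rb2 term was 1.96 ± 0.42 in CD4 spleen, 2.20 ± 0.43 in CD8 spleen, 1.47 ± 0.42 in CD4 gut and 2.37 ± 0.42 in CD8 gut (adjusted p = 0.0088, 0.0069, 0.034 and 0.0055). The Il18r1 terms were 1.13 ± 0.12, 0.44 ± 0.12, 0.97 ± 0.12 and 0.83 ± 0.12 in the same populations, with adjusted p between 2.2e-05 and 0.02. Those of Il18rap were 1.01 ± 0.12, 0.56 ± 0.12, 1.02 ± 0.12 and 0.98 ± 0.12, with adjusted p between 4.7e-05 and 0.005. Xcl1 passed in CD8 spleen, at -3.59 ± 0.93 (adjusted p = 0.029), and Ccl5 in CD4 gut, at -2.43 ± 0.58 (adjusted p = 0.018). Without CD4 gut anti-IL-2 replicate 2 the CD4 gut terms of Ccl5 (-2.34, adjusted p = 0.053) and Il12rb2 (1.21, adjusted p = 0.14) were lost, and the CD8 spleen term of Il18r1 was lost without CD8 spleen anti-IL-2 replicate 1 (0.41) or 2 (0.47).

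Markers of other cell types differed with the same term. Of all genes, 24.2% passed it in CD4 spleen, 18.6% in CD8 spleen, 21.4% in CD4 gut and 16.7% in CD8 gut. Of 11 macrophage markers tested, 1 was higher and 8 lower in CD4 spleen, 2 were lower in CD8 spleen and 5 were lower in each gut population. The complement gene C1qb was at -5.72 in CD4 spleen, -5.14 in CD8 spleen, -7.92 in CD4 gut and -9.15 in CD8 gut, at levels of no more than 26.5 CPM in any library. Of 5 neutrophil markers tested, 3 were higher in CD4 spleen and 2 in CD8 spleen, among them Camp at 8.33 and 5.25, and none passed in gut. Camp was at no more than 4.87 CPM in any library and at 0 in 9 libraries. The 6 neutrophil markers summed to 57.0 (anti-IL-2) against 0.93 (IgG) CPM in CD4 spleen of batch 190306 and to 36.1 against 0.98 CPM in CD8 spleen, and Elane was at 0 in 17 of 22 libraries. The summed macrophage markers in that batch were at 103 (anti-IL-2) against 217 (IgG) CPM in CD4 spleen and 218 against 260.1 CPM in CD8 spleen. They were at 61.8 against 60.2 CPM in CD4 gut and 127 against 128 CPM in CD8 gut. Of the 13 markers, 2 were higher and 10 lower with anti-IL-2 in each spleen population. In CD4 gut 1 was higher and 11 lower, and in CD8 gut 2 were higher and 8 lower. Itgam, at 28.4 CPM or more in every library, weighs in these sums and was the marker with a higher term in CD4 spleen, at 1.52. The part of these cells in the terms was not tested.

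In a further version, likewise chosen after seeing the data, batch 190306 had a level of its own in each population, which compares the within-batch differences directly. Il18r1 and Il18rap again passed in all 4 populations. Il12rb2 passed in both spleen populations, at 2.13 in CD4 and 2.82 in CD8 cells, and not in gut, at 1.05 in CD4 and 1.79 in CD8 cells (adjusted p = 0.2 and 0.064). Ccl5 in CD4 gut was at -1.27 (adjusted p = 0.12). In that version Csf2 and Tnf also passed in CD4 spleen, at 4.10 and -1.27, and Ccl3, Ccl4, Csf2 and Xcl1 in CD8 gut, at -1.87, -1.58, -1.82 and -3.45. In the first version, the Xcl1 term in CD8 spleen was lost without anti-IL-2 replicate 1 or 2 or IgG replicate 3, at -3.34, -3.83 and -3.52.

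Some differences had the same direction in every batch that gives one, with the treatment labels of batch 190306 taken as given. With anti-IL-2, Ccl3 and Ccl4 were higher and Csf2, Il18r1, Tnf and Ifng lower in each CD4 gut pair. Tnf and Ifng were lower and Ccl5 higher in each CD8 gut pair. In CD8 spleen, Ccl3 and Tnf were higher and Csf2 lower in each pair. The Il18r1 difference in CD4 gut and the Tnf difference in CD8 spleen were almost 0 in batch 190306, and the Ccl5 difference in CD8 gut was 0.02 in that batch. No gene kept its direction in CD4 spleen. If the labels of that batch were exchanged, its Tnf and Ifng differences in gut would be positive and the batches would go opposite ways. As labelled, Tnf was lower with anti-IL-2 in all 4 gut pairs, at 70.3 (anti-IL-2) against 86.3 (IgG) CPM in CD4 cells and 23.6 against 37.1 CPM in CD8 cells of batch 190306, and with log2 differences of -0.30 and -0.65 there and of -0.62 and -1.39 in batch 181212. Ifng was lower in the same 4 pairs, at 159.8 (anti-IL-2) against 248 (IgG) CPM and 247 against 292 CPM in CD4 cells of batches 190306 and 181212, and at 191 against 362 CPM and 274 against 399 CPM in CD8 cells. Every gut library labelled anti-IL-2 was below every gut library of its lineage labelled IgG for both genes. For Ifng in CD4 cells the closest such libraries were at 247.3 and 248.5 CPM and came from different batches. How many of all genes separate in this way was not counted. Over all batches neither gene passed the adjusted threshold (adjusted p = 0.46 for Tnf and 0.67 for Ifng in CD8 gut). The summed immediate early genes were also lower in gut libraries labelled anti-IL-2, at 4659.5 to 7429.6 CPM against 10393 and 10591 CPM with IgG in CD4 cells and at 2966 to 5639 CPM against 7553 and 8146 CPM with IgG in CD8 cells. The list was split in batch 181212, with 8 genes higher and 10 lower in each gut population and a mean log2 difference over its genes of -0.14 in CD4 and -0.08 in CD8 cells. In batch 190306, 3 were higher and 15 lower in CD4 gut and 1 higher and 17 lower in CD8 gut, at -0.90 and -1.17. Their part in the Tnf and Ifng values was not tested.

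The genes whose level was most like each of the 10 were ranked by Pearson r of log2 CPM over the 22 libraries, among 9318 genes of at least moderate level. For Ccl3 and Ccl4 the closest gene was the other of the pair, with an r of 0.98. For Ccl5 it was Heatr9 (0.97), for Il18r1 Ahnak (0.96), for Tnf Srgn (0.95), for Xcl1 Elk3 (0.95) and for Il12rb2 Csf1 (0.94). The closest genes to Csf2, Ifng and Il18rap were Cdkn1a (0.91), Ube2j1 (0.90) and Rap1b (0.86). The libraries share tissue, lineage, batch and treatment, so these values describe shared patterns over libraries and carry no test.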

How the data were processed

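Whole-transcript RNA-seq was done on 22 libraries of sorted donor T cells, made with a stranded mRNA kit per the labels' protocols. The deposited table holds raw counts of reads per gene symbol. The authors aligned with TopHat2 to the mouse mm10 build and counted with HTSeq 0.9.1, per the submitters' processing notes; the annotation and the strand setting are not given in the sources used here. Genes were matched by symbol to GENCODE annotation of GRCm38 for positions and exon lengths (97.6% of 24091 symbols).

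From these counts, CPM were computed with edgeR 4.0.16 (R 4.3.3) and trimmed mean of M-values scaling, and log2 CPM with a prior count of 2. Tests used edgeR's quasi-likelihood F test with robust dispersion after filterByExpr, with Benjamini-Hochberg adjustment over all genes tested in a contrast and a threshold of 0.05, and every adjusted p in the text is from this test unless another tool is named. The fits were: treatment in 8 groups with batch as a term (22 libraries), the same in the 14 libraries of batches 181201 and 181212, treatment with an effect of batch 190306 of its own in each population, and 4 populations with batch by treatment as a block of 6 levels. Libraries of 1 batch and treatment deviated together from their group means (Pearson r of 0.207 to 0.778 over 31 pairs), so gut and spleen and CD4 and CD8 libraries were compared within that block. The treatment fits took batch alone as a term and counted such libraries as independent. Treatment calls in several populations are therefore not independent results, and the treatment p-values of single populations rest on the same assumption and may be too small. Depth was 14628806 to 24518362 counts per library, and no pair of libraries was identical. The tests were checked on simulated counts with 2-fold changes. Alternatives were limma voom (3.58.1), DESeq2 (1.42.0), other scalings, no filter, other blocks, other prior counts and each library left out.

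The 10 genes and all gene lists were chosen with earlier results of these data known, so no direction of a list is independent evidence. The 10 genes were tested in every comparison, and where not all are named the text gives the counts and those that passed or came nearest; of each list, up to 4 members past the threshold with the smallest p are named, and for each of the 10 the genes with the highest Pearson correlation of log2 CPM over the libraries. Some members of the lists are counted but not reported here by name. Groups follow the source, cell type, tissue and treatment labels. Recipients lacking PD-L1, which the series title names, are not analysed here.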

Additional observations from a re-analysis of the deposited data

Results flagged for a closer look

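The results here had treatment or tissue effects that differed between populations or batches. All but the last were tested with edgeR's quasi-likelihood test and passed an adjusted p of 0.05.

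The treatment effect of batch 190306 minus that of batches 181201 and 181212 was fitted as a term beside a shift of the batch shared by all groups. Since the IgG libraries of the batch, over all populations, set that shift, the term can differ from what the within-batch differences of a population give. On the log2 scale, this term was positive for the receptor chains in all populations. For Il12rb2 it was 1.96 in CD4 spleen, 2.20 in CD8 spleen, 1.47 in CD4 gut and 2.37 in CD8 gut. For Il18r1 it was 1.13, 0.44, 0.97 and 0.83 in the same order of populations, and for Il18rap 1.01, 0.56, 1.02 and 0.98. It was negative for Ccl5 in CD4 gut, at -2.43, and for Xcl1 in CD8 spleen, at -3.59. The within-batch differences of Ccl5 in CD4 gut were -0.88 in batch 190306 and 0.48 in batch 181212. In the version with a level of batch 190306 of its own in each population, Ccl5 in CD4 gut did not pass. Nor did Il12rb2 in CD4 gut or CD8 gut in that version. The IL-2 response genes Il2ra, Cish and Socs2 also went the other way in this batch, in every population. The treatment labels of batch 190306 are therefore in doubt; they were used as given, and whether they are right was not tested. With its anti-IL-2 and IgG labels exchanged, the sign of each treatment difference within the batch would turn, and the terms given here would not hold as stated.

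In batches 181201 and 181212, the anti-IL-2 effect of CD4 minus that of CD8 cells in spleen was -1.93 for Csf2 and -0.48 for Il18r1. The effect of gut minus that of spleen in CD4 cells was 1.64 for Csf2, 0.84 for Ccl3 and -1.34 for Tnf, and in CD8 cells -1.62 for Tnf and -0.64 for Il18r1. Each gut IgG group holds 1 library in these batches. All the calls of these differences, except that of Il18r1 for gut minus spleen, were lost when some single library was left out.

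The gut over spleen difference of CD4 minus that of CD8 cells was 0.40 for Il18rap, a call lost without batch 190306 and without several single libraries. Tnf in CD8 cells was lower in libraries labelled anti-IL-2 in each gut batch and higher in each spleen batch, the spleen difference of batch 190306 being almost 0, and the mean within-batch difference of gut minus that of spleen was -1.20; over all batches this was not tested.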

How the results depend on the processing

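No value of the 10 genes that passed the threshold changed sign under the alternatives run. With all libraries of a comparison's batches kept, or batch 190306 left out, 1427 tests of single genes kept their call, 36 lost it, 30 gained it and 7 that passed in neither setting moved by more than their error. With 1 library left out these numbers were 1257, 69, 8 and 46. All 160 levels and 200 within-batch differences moved by less than their spread. Counts of the 10 genes past the threshold moved by more than 1.5 times in these cases, and the cause was not tested. With own levels of batch 190306 they were 2 (CD4 gut, main value 4), 5 (CD4 spleen, main value 3) and 6 (CD8 gut, main value 3). Without the replicate block, the count was 5 for CD8 gut over spleen (main value 8), 0 for the gut over spleen difference of CD4 minus CD8 (main value 1) and 0 for the treatment difference of CD4 minus CD8 in spleen (main value 2). The gut over spleen difference of CD4 minus CD8 also gave 0 with batch alone as a block, 0 without batch 190306 and 2 with limma voom, and the treatment difference of CD4 minus CD8 in spleen gave 1 with limma voom. The pairing used is the batch label, since replicate numbers differ from batch order in the gut IgG groups, and leaving out this block moved no other count of the 10 genes by over 1.5 times.

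Counts over all genes moved by more than 1.5 times as well. Without the replicate block, gut over spleen gave 3259 genes in CD4 cells (main value 6329) and 3163 in CD8 cells (6141), CD4 over CD8 gave 2976 in gut (5906) and 4715 in spleen (7459), and the difference of CD4 minus CD8 gave 36 (597). That difference gave 42 with batch alone as a block, 120 without batch 190306 and 962 with DESeq2. In batches 181201 and 181212 no block gave 872 genes in CD4 gut (1533), 52 for CD4 minus CD8 in spleen (120), 230 for gut minus spleen in CD4 (705) and 66 in CD8 (313), and DESeq2 gave 946 in CD4 gut, 848 in CD8 gut (1403) and 1036 in CD8 spleen (1587). Over all batches, where edgeR called 0, DESeq2 called 8 in CD4 gut and 18 in CD8 gut, and scaling by relative log expression 1 in CD4 gut.

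With each library left out in turn, the counts in batches 181201 and 181212 ranged from 4 to 5 in CD4 spleen, 2 to 3 in CD8 spleen, 2 to 2 in CD4 gut and 3 to 5 in CD8 gut. The treatment differences between populations ranged from 0 to 2 (CD4 minus CD8 in spleen), 0 to 3 (gut minus spleen in CD4) and 1 to 1 (gut minus spleen in CD8, main value 2). Those of batch 190306 against the others ranged from 2 to 4 in CD4 gut and in CD8 spleen and stayed at 3 in CD4 spleen and CD8 gut. Gut over spleen ranged from 8 to 9 in CD4 and 7 to 9 in CD8 cells, CD4 over CD8 from 6 to 7 in spleen and 7 to 7 in gut, and the difference of CD4 minus CD8 from 0 to 2. Groups hold 2 or 3 libraries, and each gut IgG group 1 without batch 190306. Depth gave at least 39 reads per library for the 10 genes.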
